A study of Homo sapiens with 12 samples.

Results

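Untreated SCC1 was described at baseline, against the untreated SCC6 and SCC25 lines, in single-cell RNA sequencing of cultured squamous carcinoma cells of the head and neck (HNSCC). Its members were the 2 SCC1 samples given PBS (phosphate-buffered saline), chosen by their labels, out of 6 PBS samples and 12 samples in the series. They held 2929 cells of 13040 in the PBS samples and 23914 in all. The groups used here were SCC1, SCC6 and SCC25 with daily PBS for 5 days, beginning 24 h after the cells were seeded, with 2 replicates each. All were grown in DMEM and Ham's F12 with fetal bovine serum. The other 6 samples had received the EGFR-blocking antibody cetuximab and entered only where stated. Each line is 1 established culture, so a difference below separates SCC1 from these other lines and says nothing about tumours in general. The libraries are of the 3′ droplet type, in which each transcript molecule is counted once as a unique molecular identifier (UMI).

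Squamous epithelium is built on a basal layer that expresses TP63, KRT5 and KRT14 and is anchored through hemidesmosomes to laminin in the basement membrane. Its cells replace these basal keratins with others as they differentiate, and finally form a cornified envelope while kallikrein proteases dissolve the junctions between them. Carcinoma lines keep parts of this programme and can also express keratins of simple or hair epithelium, mesenchymal genes such as VIM, matrix genes and interferon-stimulated genes.

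Total UMIs ranged from 62519572 to 112170073 per PBS sample, with the lowest total in SCC1 replicate 1, and the median cell had 31947.5 to 52118.5 UMIs. The SCC1 cells were the deepest, at medians of 45993 and 52118.5 UMIs. Levels are given as CPM, UMIs summed per sample and scaled to 1000000 of the TMM-adjusted library, and need no length correction for this chemistry. All 10 squamous epithelial markers were detected at 10 CPM or more in SCC1. Of the defining markers of other cell types, PTPRC, MS4A1, LYZ and SOX10 had no UMI in either SCC1 sample, and none of the 8 fibroblast, 6 endothelial or 7 melanocyte and neural markers reached 10 CPM there. Of the 8 leukocyte markers CD14 alone did, at 10.2 and 12.9 CPM, against 0.046 to 5.14 CPM in the other lines (FDR = 0.0415). Between 3 and 10 cell barcodes were shared between replicates of a line, and between 2 and 13 between libraries of different groups.

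A gene was called apart in SCC1 where it was higher, or lower, than in SCC6 and also than in SCC25, taking the weaker of both edgeR tests and adjusting over all 17229 genes (FDR below 0.05). By this rule 626 genes were higher in SCC1 (3.63% of those tested) and 1413 were lower (8.2%), 2039 in all. With the replicate number as a block these counts were 1423 (8.26%) and 2164 (12.6%), and 2038 of the 2039 calls were kept. The direction split depended on the scale. With library totals in place of TMM factors, 1138 genes were higher and 1122 lower, so that 50.4% of the calls were higher in place of 30.7%. On that scale the median gene stood 0.32 (log2) higher in SCC1 than in SCC6 and 0.16 higher than in SCC25. Ribosomal protein genes took 21.8% and 23.3% of the UMIs of the SCC1 replicates, with 34.2% and 27.9% for SCC6 and 26.3% and 22.1% for SCC25.

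The highest genes of SCC1 combined matrix proteins, a cell cycle inhibitor and interferon-stimulated genes. SPARC, a secreted collagen-binding matrix protein (chr5:151661096-151686915), was at 156 and 158 CPM in the SCC1 replicates, 0.046 and 0.106 CPM in SCC6 and 0.399 and 0.659 CPM in SCC25. Both SCC1 samples lay far above the other 4, with a log2 difference of 10.98 ± 0.49 (SE) over SCC6 and 8.20 ± 0.42 over SCC25 (FDR = 0.00011). CDKN2A, which encodes the cell cycle inhibitor p16 and, from another reading frame, p14ARF (chr9:21967752-21995324), was at 110 and 103 CPM in SCC1. It had no UMI in SCC6 and 0.424 and 0.42 CPM in SCC25, so that SCC1 was at least 6443-fold higher than SCC6 and stood 7.98 ± 0.30 (log2) over SCC25 (FDR = 9.92e-05). The floor for SCC6 was 3 UMIs over both samples. SERPINB2, an inhibitor of plasminogen activators, was at 68.9 and 62.4 CPM against 3.78 and 3.4 CPM in SCC6 and 0.194 and 0.0764 CPM in SCC25.

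The remaining genes of this group were lower in both other lines without being absent. KLHDC8B was at 42.4 and 59.8 CPM in SCC1 and at most 6.65 CPM elsewhere, and RBP7, a cellular retinol-binding protein, at 69.7 and 61.3 CPM and at most 7.32 CPM elsewhere. FSTL1, a secreted follistatin-like glycoprotein, was at 154 and 104 CPM in SCC1, against 22 and 16.8 CPM in SCC6 and 12 and 5.83 CPM in SCC25. The other members, MX1, EPSTI1, IFI44L, IFI6, USP18 and TMEM50B, are described with the interferon genes.

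The lowest genes were far lower in SCC1 than in both other lines, and several of them were nearly silent there. MGST1, a microsomal glutathione transferase, was at 0.0664 and 0.0599 CPM in SCC1 (11 UMIs in all) against 654 and 784 CPM in SCC6 and 215 and 265 CPM in SCC25. The log2 difference was -13.45 ± 0.39 from SCC6 and -11.87 ± 0.38 from SCC25 (FDR = 4.48e-05). CD24, a glycosylated surface adhesion molecule, was at 1.08 and 1.09 CPM in SCC1, 448 and 288 CPM in SCC6 and 576 and 633 CPM in SCC25 (FDR = 8.11e-05). GPX2, a glutathione peroxidase of epithelia, was at 0.412 and 0.429 CPM, against at least 76.1 CPM in each other sample. In every one of the 12 lowest genes the SCC1 samples lay below all 4 others, which their choice by the largest differences makes likely. Over all genes tested the SCC1 samples did so for 22.3%.

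Other genes of that group have diverse roles. TUSC3, a subunit of the oligosaccharyltransferase, stood at 0.425 and 0.609 CPM against 51.5 to 83.6 CPM. The hair keratin KRT81 stood at 0.611 and 0.789 CPM, with 5115 and 6080.4 CPM in SCC6 and 73.6 and 50.6 CPM in SCC25. In the SCC25 replicates 10 cells held 31.6% and 32.1% of the KRT81 UMIs. EGFL7, a secreted EGF-domain protein, GAL, the neuropeptide galanin, and CRIP1, a small LIM protein, were at most 1.62 CPM in SCC1 and at least 33.8 CPM in the other lines. CAMK2N1, an inhibitor of calcium/calmodulin-dependent kinase, was at 4.85 and 3.99 CPM, and PMEPA1, a TGF-beta-induced inhibitor of SMAD signalling, at 12.5 and 6.06 CPM, against at least 44.9 and 92.2 CPM elsewhere. VIM is given below.

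**Figure D1:**
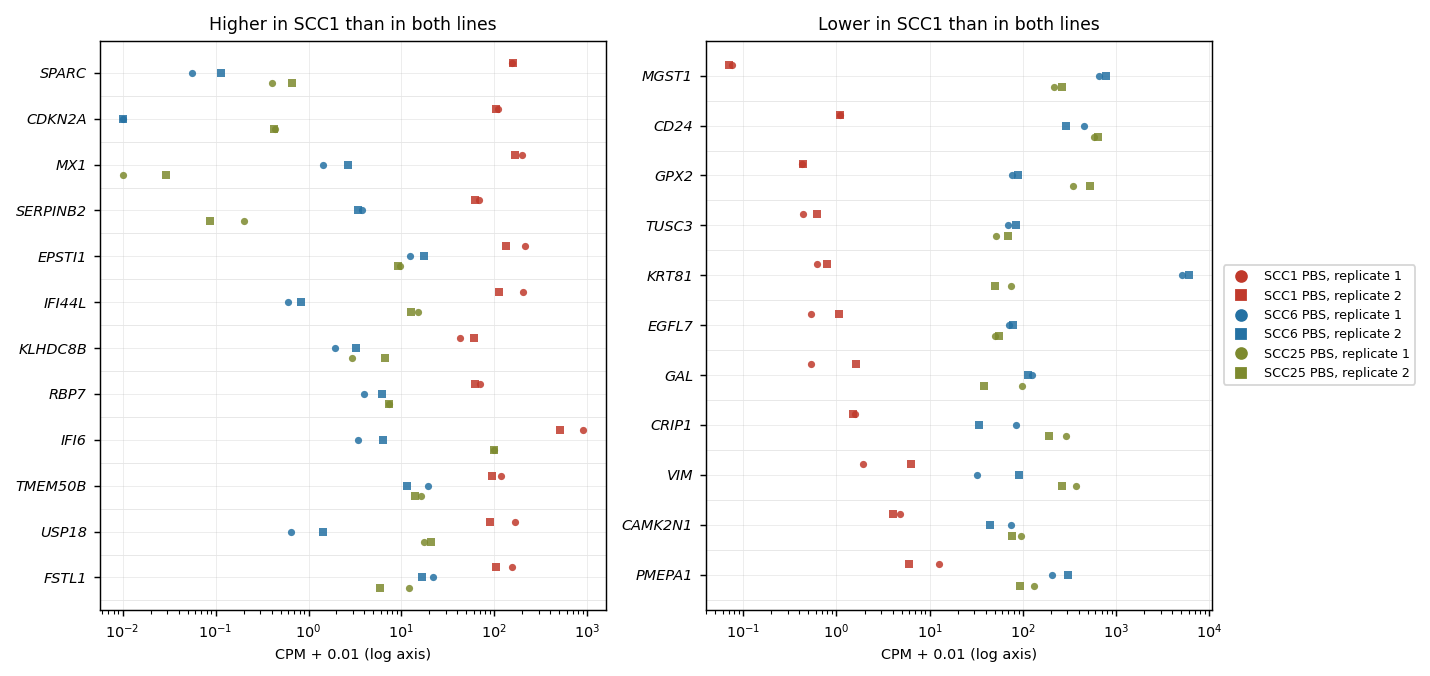
Levels of 12 of the highest and 11 of the lowest named genes in the 6 untreated samples. Each point is 1 sample, the x axis is CPM + 0.01 on a log scale, colours mark lines and shapes mark replicates. For all 23 genes, which were chosen for large differences, the SCC1 points lie outside the range of the other 4.

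Seen per cell, the lines were nearly separate for SPARC, CDKN2A, CD24 and MGST1, and less so for other genes of these groups. After each cell was thinned to 18500 UMIs, SPARC was detected in 78.2% and 79.8% of SCC1 cells and in at most 0.574% of cells of the other samples. CDKN2A was detected in 89% and 85.8% of SCC1 cells, in no SCC6 cell and in at most 0.738% of SCC25 cells. CD24 was found in 1.83% and 1.97% of SCC1 cells and in 94% or more of the cells of every other sample, and MGST1 in 0.167% and 0.185% against 95% or more. TMEM50B overlapped more, with 84.3% and 76.5% of SCC1 cells against 18.8% to 25% in the other samples. PMEPA1 was found in 20.5% and 9.91% of SCC1 cells and in 61.7% or more elsewhere. UMIs of the 12 lowest genes were spread over 765 of 1263 and 923 of 1666 SCC1 cells, and the 5 cells with most of them held 4.35% and 16.6%. Each library holds 1 line, so it had no cell type lacking these genes in which free RNA could be measured. The thinning left out 4.91% and 2.52% of SCC1 cells, which had fewer UMIs, and the unthinned shares of SPARC-positive cells began at 88.9% in replicate 1.

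Among 25 transcription factors of squamous lineage, 24 were tested, of which 3 were higher in SCC1 than in both lines (12.5%) and 7 lower (29.2%). Over all genes these shares were 3.63% and 8.2%, the reference for the main counts of each list below. The reference for counts with the block was 8.26% and 12.6%, and for SCC1 against the mean of both lines 16.3% and 20%. Over all genes, DESeq2 called 909 higher and 1757 lower, and limma 648 and 1553. TFAP2A, the AP-2 alpha factor of surface ectoderm, was at 121 and 125 CPM in SCC1, 52 and 53.7 CPM in SCC6 and 58.3 and 53.5 CPM in SCC25. The SCC1 samples were above the other 4, by 2.33-fold over SCC6 and 2.20-fold over SCC25 (log2 1.22 ± 0.21 and 1.14 ± 0.21, FDR = 0.0117). Its paralogue TFAP2C went the other way, at 6.48 and 6.13 CPM against 11.1 to 14.5 CPM (FDR = 0.0386), a call that was lost with library totals. ZNF750, a driver of terminal epidermal differentiation, was at 10.2 and 13.4 CPM in SCC1 and at most 2.89 CPM elsewhere. OVOL2, a repressor of mesenchymal genes in epithelia, was at 18.1 and 14.8 CPM against 6.42 and 7.43 CPM in SCC6 and 3.33 and 5.11 CPM in SCC25.

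Of the 7 lower factors, SOX2, known from foregut epithelium and stem cells, was at 0.159 and 0.489 CPM in SCC1, 2.06 and 3.18 CPM in SCC6 and 19.7 and 31.7 CPM in SCC25. PAX9, needed for pharyngeal pouch and tooth development, was at 0.664 and 0.379 CPM against 3.16 to 22.5 CPM. EHF, an epithelial ETS factor, was at 5.23 and 5.44 CPM against 33.9 to 82.5 CPM, and PITX1, a factor of hindlimb and oral ectoderm, at 33.9 and 35 CPM against 88.5 to 139 CPM. FOXE1 and FOXQ1 completed the group with TFAP2C. TP63, the master factor of the basal layer, was not apart: it was at 21.8 and 15 CPM in SCC1, between SCC6 (13.6 and 6.61 CPM) and SCC25 (69.8 and 31.3 CPM).

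Homeobox and other positional factors, which record where in the embryo a tissue arose, differed in a similar mixture. Of 75 listed, 69 were tested, 5 were higher (8 with the block) and 14 lower. The distal-less genes DLX1, DLX2 and DLX6, which pattern the jaw arches, were higher. DLX2 was at 19.4 and 23.8 CPM in SCC1, 0.885 and 1.32 CPM in SCC6 and 5.53 and 6.15 CPM in SCC25 (FDR = 0.00528). BARX2 was at 10.9 and 12.5 CPM against at most 2.2 CPM elsewhere, while its relative BARX1 was at 0 and 0.02 CPM in SCC1 and 0.422 to 6.21 CPM elsewhere. ALX1 had UMIs in SCC1 alone, at 0.996 and 1.73 CPM. Lower genes included both MSX factors, with MSX2 at 0.0133 and 0.02 CPM in SCC1 and 2.42 to 3.66 CPM elsewhere, and FOXF2, PRRX2, SIX2, TBX1, TBX3, HOXA5 and HOXA13.

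**Figure D2:**
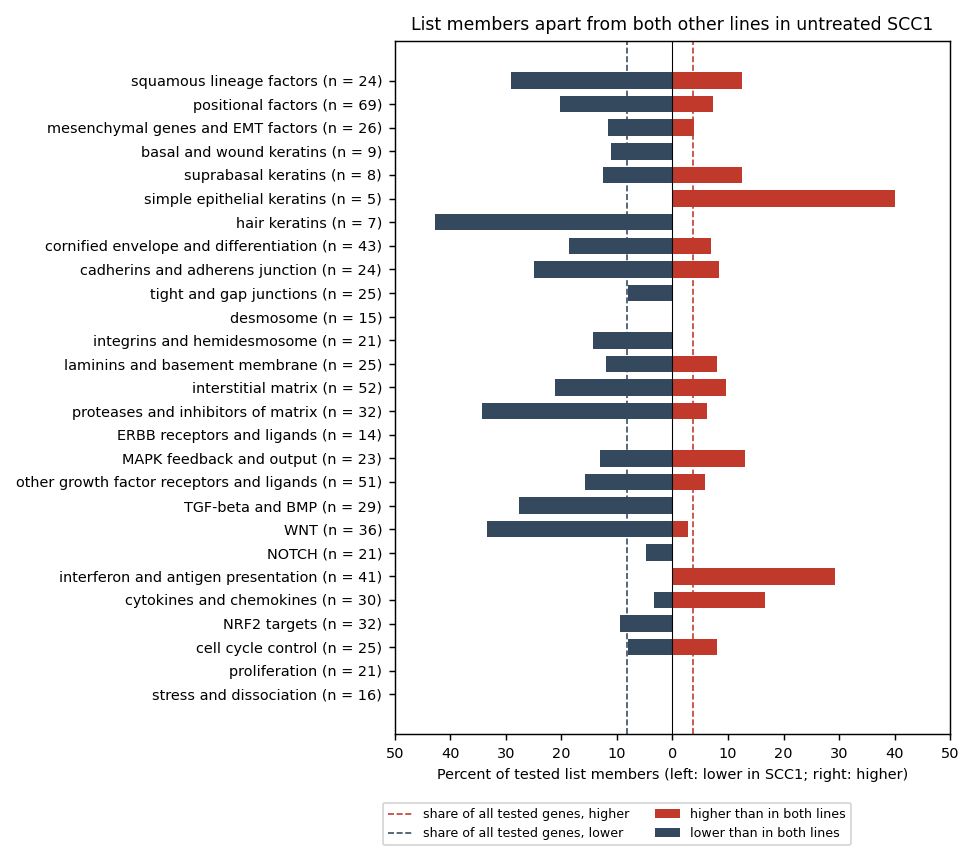
Share of the tested members of each gene list that were higher (right, red) or lower (left, dark blue) in SCC1 than in both other lines. The x axis is percent of tested members, n is the number tested and the dashed lines are the shares over all 17229 genes, 3.63% higher and 8.2% lower. The interferon list reaches 29.3% on the right with none on the left, and the WNT list 33.3% on the left.

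Keratins placed SCC1 in neither of the other patterns. The basal keratins KRT5 and KRT14, which pair into the filaments of the basal layer, lay between the other lines in every sample. KRT14 was at 1098 and 1299 CPM in SCC1, 0.896 and 0.412 CPM in SCC6 and 2491 and 4592 CPM in SCC25. KRT5 was at 315 and 550 CPM, against 1.11 and 1.57 CPM in SCC6 and 974 and 2241 CPM in SCC25. KRT5 was detected in 89.5% and 94.9% of thinned SCC1 cells, in 1.39% and 1.73% of SCC6 cells and in at least 99.9% of SCC25 cells. No member of the 9 basal and wound keratins was higher in SCC1, and KRT6B alone was lower, at 0.677 and 0.18 CPM against 5.05 to 15.3 CPM.

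The most abundant of the 3 keratins called higher in SCC1 was KRT7, a type II keratin of simple and glandular epithelium. It was at 2679.8 and 3255 CPM in SCC1, 435 and 317 CPM in SCC6 and 937 and 1358.5 CPM in SCC25. SCC1 exceeded SCC6 by 7.90-fold and SCC25 by 2.59-fold (log2 2.98 ± 0.30 and 1.37 ± 0.28, FDR = 0.0199). Of the 5 tested simple epithelial keratins, KRT23 was also higher, at 2.01 and 1.25 CPM against at most 0.306 CPM. The other tested members KRT8, KRT18 and KRT19 were not apart, and KRT8 at 1251 and 1724 CPM lay below SCC6 (3779 and 3412 CPM) and overlapped SCC25 (819 and 1417 CPM).

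The third higher keratin was the suprabasal KRT79, at only 0.505 and 0.0998 CPM in SCC1 with no UMI in the other lines (FDR = 0.0469), a call that DESeq2 did not make.

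Hair keratins were the reverse. None of the 7 tested was higher and 3 were lower, KRT81 most of all, with KRT86 at 0.571 and 0.439 CPM against 19.2 and 18.9 CPM in SCC6 and 4.62 and 3.57 CPM in SCC25. KRT33B was the third, at most 0.315 CPM in every sample. KRT80, a keratin of late differentiation, was at 12.5 and 10.2 CPM against 20.5 to 170 CPM, a call lost with library totals (FDR = 0.0461 on the TMM scale). KRT81 and KRT86, KRT6A and KRT6B, and KRT14, KRT16 and KRT17 have near-identical stretches, and how shared reads were counted is not given in the sources used here.

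**Figure D3:**
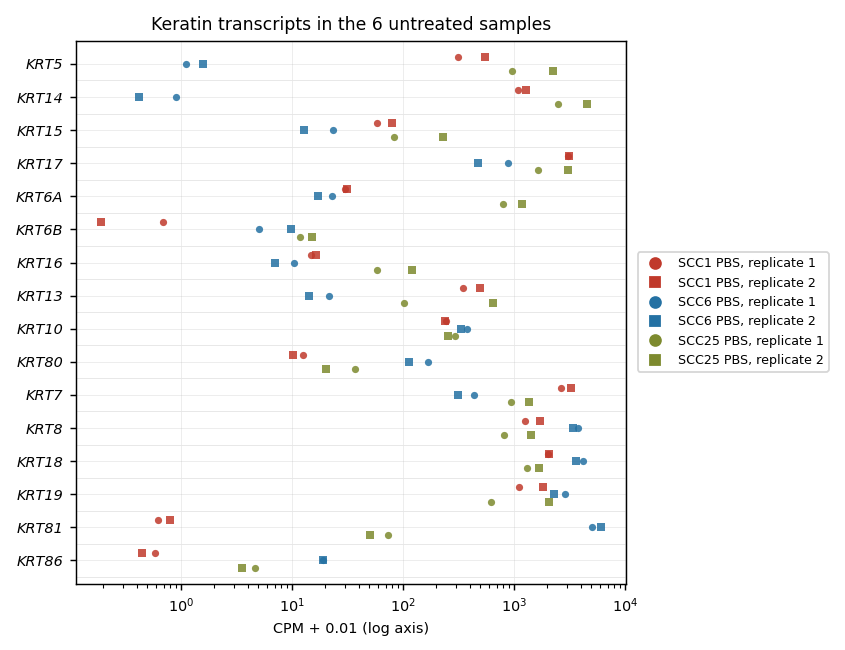
Levels of 16 keratins in the 6 untreated samples on a log axis of CPM + 0.01, with colours for lines and shapes for replicates. KRT5 and KRT14 of SCC1 fall between SCC6 and SCC25, KRT7 is highest in SCC1, and KRT81 and KRT86 are lowest in SCC1.

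Genes of cornification and differentiation were mostly low in all lines, with 43 of 56 tested, 3 higher and 8 lower in SCC1. Of the lower genes 6 were kallikreins, serine proteases that act in shedding of the epidermis: KLK5, KLK6, KLK7, KLK8, KLK10 and KLK13. KLK5 was at 1.66 and 0.799 CPM in SCC1, 30 and 35.1 CPM in SCC6 and 80.5 and 105 CPM in SCC25 (FDR = 0.000567). KLK6 was at 0.372 and 0.549 CPM, against 416 and 518 CPM in SCC6 and 8.46 and 13.4 CPM in SCC25. LYPD3, a glycolipid-anchored protein of suprabasal cells, was at 4.92 and 7.23 CPM against 22.8 to 92.6 CPM. In the upward direction SERPINB2 was joined by SERPINB7, a keratinocyte serine protease inhibitor at 9.48 and 9.96 CPM against at most 1.95 CPM, and RHCG, an ammonium transporter of upper squamous layers.

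Cell adhesion genes were apart in a few surface molecules. No desmosome gene of 15 tested was apart by edgeR, where 11.8% of all genes were. None was at an unadjusted joint p under 0.05, and none was called with the block, DESeq2 or limma. Desmoplakin (DSP), for instance, was at 172 and 144 CPM in SCC1 and 102 to 179 CPM elsewhere. Among 25 tight and gap junction genes 2 were lower (8%), CLDN3 among them, and none was higher (1 with the block). The lower share was near the 8.2% over all genes. Of 24 cadherin and adherens junction genes, 2 were higher (8.33%) and 6 lower (25%), with 3.63% and 8.2% over all genes. With the block 4 were higher. CDH1, the epithelial cadherin, was at 21.5 and 18.4 CPM against 41.9 and 25.4 CPM in SCC6 and 32.7 and 29.6 CPM in SCC25. This difference missed the threshold in the unblocked fit (FDR = 0.236) and passed as lower with the replicate block (FDR = 0.0418).

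L1CAM, an immunoglobulin-family adhesion molecule best known from neurons, was the clearest gain, at 17.9 and 21 CPM against 2.3 and 2.24 CPM in SCC6 and 2.15 and 1.93 CPM in SCC25. It stood 8.57-fold above SCC6 and 9.53-fold above SCC25 (log2 3.10 ± 0.25 and 3.25 ± 0.26, FDR = 0.000479). NECTIN3, which holds adherens junctions together with other nectins, was also higher, at 5.47 and 4.95 CPM against at most 2.62 CPM. Beside CD24, the lower genes included CD44, the hyaluronan receptor, at 40.2 and 76.9 CPM against 159 to 265 CPM, and CTNNAL1, an alpha-catenin-like protein, at 43.9 and 40.8 CPM against 148 to 247 CPM. CDH4, CDH16 and CEACAM1 were lower at levels under 3 CPM in all lines.

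Integrins, the receptors for matrix, were lower or not apart, and none of 21 tested integrin and hemidesmosome genes was higher. ITGB5 was at 1.39 and 1.49 CPM in SCC1, 13.3 and 14.5 CPM in SCC6 and 8.52 and 6.54 CPM in SCC25 (FDR = 0.00147). ITGB2 and ITGA7 were the other members called lower, under 4 CPM in each sample, and the block gave 5 lower. The 3 lower genes were 14.3% of those tested, with 8.2% over all genes. ITGB1, the common beta chain, was at 148 and 128 CPM against 214 to 348 CPM, which missed the threshold (FDR = 0.0803) and was called lower with the block. Against the mean of both lines, 10 of the 21 were lower, where 20% of all genes were. The hemidesmosome genes COL17A1 and ITGB4 were not apart.

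Of 25 laminin and basement membrane genes tested, 2 were higher (8%) and 3 lower (12%), where 3.63% and 8.2% of all genes were. With the block it was 3 and 5. LAMB3, a beta chain of laminin 332, which anchors basal cells to the basement membrane, was lower, at 29.5 and 36 CPM against 112 and 93.3 CPM in SCC6 and 94.7 and 133 CPM in SCC25 (FDR = 0.00695). LAMA3, an alpha chain of the same protein, was not apart, at 13 and 10.3 CPM against 13.8 to 31.9 CPM. The SCC1 samples did not overlap those of the other lines for LAMB3. COL4A6, a basement membrane collagen, was at 8.42 and 6.55 CPM in SCC1, had no UMI in SCC6 and was at 2.97 and 2.06 CPM in SCC25. The linker NID1 was lower, at 1.54 and 1.47 CPM against 7.04 to 15.9 CPM.

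Interstitial matrix genes were divided, with 5 higher and 11 lower of 52 tested. THBS2, a thrombospondin, was at 42.7 and 38.3 CPM in SCC1 and at most 0.0191 CPM in any other sample. It had 1 UMI over both SCC6 samples, a ratio of 7300.1 (95% counting interval 1309.8 to 288379), and 3 UMIs in SCC25, a ratio of 2508 (858 to 12166). CTGF, a matricellular protein, was at 184 and 183 CPM against 18.3 to 60.8 CPM, and COL8A1 was at 16.2 and 15.6 CPM against at most 4.73 CPM. COL1A2, the fifth, was at 4.46 and 4.18 CPM. It belongs to the 8 fibroblast markers, which together summed to 7.16 and 6.89 CPM in SCC1. Their sums were 1.10 and 3.23 CPM in SCC6 and 21.3 and 41.7 CPM in SCC25.

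The lower matrix genes included the crosslinking enzymes LOX and LOXL1 and the latent TGF-beta binding proteins LTBP1 and LTBP4. LOXL1 was at 0.0531 and 0.0499 CPM in SCC1, 6.09 and 6.73 CPM in SCC6 and 28.7 and 23.2 CPM in SCC25. SPOCK1, a proteoglycan, had no UMI in SCC1 and was at 27.7 and 30.5 CPM in SCC6 and 28.1 and 13.1 CPM in SCC25. With a floor of 3 UMIs over the SCC1 samples this is at least 1707-fold lower than in SCC6 and at least 1154-fold lower than in SCC25. MFAP2, a microfibril protein, was at 1.59 and 2.36 CPM against 21.9 to 55.8 CPM.

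Of 32 proteases and inhibitors of matrix tested, 11 were lower and 2 higher (4 with the block). The metalloproteinases MMP1, MMP2, MMP7, MMP10, MMP13 and MMP28 were all called lower. MMP13, a collagenase, was at 0.0797 and 0.0599 CPM in SCC1, 20.6 and 41.6 CPM in SCC6 and 26.5 and 130 CPM in SCC25. MMP2, a gelatinase, was at 0.093 and 0.15 CPM against 8.16 to 50.1 CPM, and MMP1 at 0.0133 and 0.389 CPM against 6.94 to 249.7 CPM. SERPINE2, an inhibitor of thrombin and plasminogen activators, was at 0.106 and 0.29 CPM against 15.2 to 120 CPM. PLAU, the urokinase plasminogen activator, was higher, at 170 and 247 CPM against 60.5 and 50 CPM in SCC6 and 64.6 and 92.8 CPM in SCC25 (FDR = 0.0197), as was ADAMTS1 at 2.67 and 1.87 CPM.

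Of 26 mesenchymal genes and factors of epithelial-mesenchymal transition tested, FSTL1 was higher (3.85%) and VIM, CDH2 and LGALS1 were lower (11.5%), shares near those of all genes. With the block 2 were higher and 3 lower. Against the mean of both lines 9 were higher and 5 lower, where 16.3% and 20% of all genes were. VIM, the intermediate filament of mesenchymal cells, was at 1.93 and 6.28 CPM in SCC1, 32.3 and 90 CPM in SCC6 and 368 and 261 CPM in SCC25. The samples did not overlap, although the replicates of SCC1 and of SCC6 lay far apart. SCC1 stood below SCC6 by a log2 difference of -3.89 ± 0.68 and below SCC25 by -6.25 ± 0.76 (FDR = 0.0103). In the SCC1 replicates 10 cells held 58.6% and 72.5% of the VIM UMIs, so these levels rest on few cells, with 23.8% and 17.6% in SCC6 and 5.94% and 8.49% in SCC25. VIM was detected in 2.17% and 3.14% of thinned SCC1 cells, 19.9% and 38.9% of SCC6 cells and 82.1% and 58.2% of SCC25 cells. CDH2, the neural cadherin, was at 4.1 and 2.69 CPM against 9.7 to 66.4 CPM, and LGALS1, galectin 1, at 1086 and 1349 CPM against 2404 to 2996 CPM. The calls of CDH2 and LGALS1 were lost with library totals. TAGLN and CALD1, actin-binding proteins of contractile cells, were at 215 to 336 CPM in SCC1 and were not called apart.

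Of the EGFR family, target of the treatment used in the series, none of 14 tested receptors, ligands and inhibitors was called by edgeR, where 11.8% of all genes were, with none at an unadjusted joint p under 0.05 and none with the block, DESeq2 or limma. Against the mean of both lines 3 were higher and 2 lower, where 36.3% of all genes passed in either direction. EGFR was at 58.9 and 70.6 CPM in SCC1, 99.5 and 82.9 CPM in SCC6 and 86 and 108 CPM in SCC25. The SCC1 samples were the lowest pair (log2 difference -0.49 ± 0.24 from SCC6 and -0.58 ± 0.24 from SCC25), and the difference did not pass (FDR = 0.278). The ligands were ordered differently by line: AREG, amphiregulin, was at 231 and 211 CPM in SCC1, 594 and 125 CPM in SCC6 and 59.8 and 31.7 CPM in SCC25. AXL, a receptor of the TAM family, was at 158 and 110 CPM in SCC1 and 43 to 95 CPM elsewhere, and did not pass either (FDR = 0.583).

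Downstream of receptors, 3 of 23 MAPK feedback and output genes were higher and 3 lower. The higher genes were the PEA3 factors ETV1, ETV4 and ETV5, ETS proteins whose transcripts follow ERK activity in many tissues. ETV5 was at 48.2 and 49.2 CPM in SCC1, 13.9 and 15.5 CPM in SCC6 and 14 and 6.03 CPM in SCC25 (FDR = 0.0254), and ETV4 at 45.3 and 52 CPM against 7.66 to 21.1 CPM. Other outputs of the same pathway were lower: PHLDA1 was at 46.4 and 49.5 CPM against 163 to 734 CPM, SPRY1 at 1.5 and 1.33 CPM against 5.59 to 9.48 CPM, and HMGA2 at 17.5 and 20.1 CPM against 35.5 to 70.6 CPM. The HMGA2 call was lost with library totals. The remaining 17 were not called.

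Of 51 other growth factor receptors and ligands tested, 3 were higher (5.88%) and 8 lower (15.7%). With the block it was 6 and 12, where 8.26% and 12.6% of all genes were called, and by DESeq2 4 and 12. FGF5, a fibroblast growth factor, was at 22.3 and 10.5 CPM in SCC1 and at most 1.85 CPM elsewhere. IGFBP4, which binds insulin-like growth factors, was at 190 and 240 CPM against 11.1 and 11.7 CPM in SCC6 and 77 and 93 CPM in SCC25, while IGFBP2 was at 0.0133 and 0.0799 CPM against 5.7 to 82.3 CPM. The ligands of the TAM receptor family were split. PROS1 was higher at 7 and 7.39 CPM against at most 1.19 CPM. GAS6, the ligand of AXL, was lower at 17.1 and 19.2 CPM against 31.8 to 112 CPM, a call lost with library totals. The ephrin system was lower in part, with EPHB2 at 5.21 and 6.29 CPM against 18.9 to 25.4 CPM, and EPHA4 and EFNB2 lower too. FGFR1, ROR1 and NTRK2 were the remaining receptors called lower.

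TGF-beta and BMP genes were lower or not apart, with 8 lower and none higher of 29 tested. BMP4 had no UMI in SCC1 and was at 1.32 and 2.14 CPM in SCC6 and 6.25 and 7.62 CPM in SCC25. BAMBI, a decoy receptor of the family, was at 0.093 and 0 CPM against 7.46 to 36.8 CPM, and SMAD3, which carries the TGF-beta signal to the nucleus, at 12.6 and 12.8 CPM against 29.3 to 48.7 CPM (FDR = 0.0214). ID4 was at 8.13 and 5.59 CPM against 17.2 to 49.7 CPM. ID3, in contrast, was highest in SCC1, at 1182 and 1372 CPM against 362 and 248 CPM in SCC6 and 530 and 976 CPM in SCC25, without passing against both (FDR = 0.233). Against the mean of the other lines, 14 of the 29 were lower and 2 higher, where 20% and 16.3% of all genes were.

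WNT genes had a like pattern, with 12 lower and 1 higher of 36 tested (3 higher with the block). SFRP1, a secreted WNT antagonist, had no UMI in SCC1 and was at 17.2 and 19.3 CPM in SCC6 and 181 and 112 CPM in SCC25, so that SCC1 was at least 1067-fold lower than SCC6 and 8349-fold lower than SCC25. DKK1, another antagonist, was at 76.7 and 61.5 CPM against 150 to 565 CPM (FDR = 0.0241). Ligands, receptors and the target SP5 were lower as well: WNT7B was at 2.8 and 2.19 CPM against 40.9 to 77.4 CPM, with SP5, FZD7, FZD8, FZD10, LGR4, WNT4, WNT5A, WNT5B and WNT9A each under 2 CPM in SCC1. LEF1, the nuclear effector called higher, was at only 0.266 and 0.26 CPM in SCC1 and at most 0.00955 CPM elsewhere. WNT10A was at 79.6 and 102 CPM against 24.7 to 45.9 CPM and passed as higher with the block but not without it (FDR = 0.0861). In the NOTCH list HEY1 alone of 21 was called, as lower (4.76%), and with the block 1 was higher and 2 lower.

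Of the 27 lists, the interferon and antigen presentation list held the largest number of genes higher in SCC1 than in both lines. Type I interferon signals through IFNAR1 and IFNAR2 to a complex with STAT2 and IRF9, which binds a repeated GAAA element in the promoters of antiviral genes. Of 41 members tested, 12 were higher than in both lines and none was lower, and with the block 20 were higher. DESeq2 called 17 higher and 1 lower, and limma 12 higher and none lower. Against the mean of both lines 35 were higher, where 16.3% of all genes were. The median of the smaller log2 difference over the list was 0.93, with 0 over all genes. Against SCC6 the median difference was 3.77 and against SCC25 0.93, so the separation from SCC25 was the smaller one.

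Below are upstream stretches of the called members, with EPSTI1, that hold 2 copies of GAAA separated by any 2 bases (NN) on either strand. They are shown because 12 of the 41 list members were higher than in both lines. Whether this element has a part in the difference was not tested. The sequences are those of RefSeq (GRCh38.p14), written 5′ to 3′ on the strand of the gene, with each match in capitals. BST2 is on the minus strand at chr19:17405730-17405775, EPSTI1 on the minus strand at chr13:42992267-42992306, IFI44L on the plus strand at chr1:78620335-78620414, IFI6 on the minus strand at chr1:27672261-27672363, OAS3 on the plus strand at chr12:112938422-112938473 and TAP2 on the minus strand at chr6:32838773-32838812.
BST2: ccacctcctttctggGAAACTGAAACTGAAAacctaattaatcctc
EPSTI1: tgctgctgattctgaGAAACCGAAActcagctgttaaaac
IFI44L: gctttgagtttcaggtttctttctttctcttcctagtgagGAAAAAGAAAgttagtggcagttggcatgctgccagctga
IFI6: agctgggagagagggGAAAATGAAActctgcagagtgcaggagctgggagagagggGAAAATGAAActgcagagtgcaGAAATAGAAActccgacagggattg
OAS3: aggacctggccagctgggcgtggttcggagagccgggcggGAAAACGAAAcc
TAP2: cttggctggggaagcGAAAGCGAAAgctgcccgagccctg

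IFI6 held 3 matches, BST2 held 2 that overlap, and IFI44L and OAS3 each held a second match outside the stretch shown. Of the 12 called members, 9 had a promoter in the table and 5 of these (55.6%) held the letters in the 250 bases before the start. Over the whole interferon list, called or not, it was 17 of 29 (58.6%), so the share was no higher among the called members. MX1, IFI35, HLA-DMA and HLA-DRB1 held none in that window. Over all 27305 promoters the share was 3.07%. It was 4.91% of the 428 matched genes higher in SCC1, 1.15% of the 955 lower genes and 2.37% of the 10425 not called. A match describes these letters and not a bound site.

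MX1, a dynamin-like antiviral GTPase, was at 198 and 168 CPM in SCC1, 1.44 and 2.68 CPM in SCC6 and 0 and 0.0191 CPM in SCC25 (FDR = 0.000326). Its neighbour MX2 had no UMI in SCC25 and was at 25.9 and 11.1 CPM in SCC1, at least 1092-fold higher. IFI6, a mitochondrial antiapoptotic protein, was the most abundant called member, at 899 and 506 CPM, against 3.41 and 6.28 CPM in SCC6 and 99.7 and 99.3 CPM in SCC25. It was detected in 99.7% and 98% of thinned SCC1 cells and in 54.7% and 52.6% of SCC25 cells, so its level in SCC1 was spread over the culture. For IFI6, IFI44L, USP18 and MX2, SCC1 replicate 1 was well above replicate 2, and both lay above all other samples.

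EPSTI1 was at 213 and 134 CPM against 9.07 to 17.2 CPM, and IFI44L at 202 and 112 CPM against 0.597 and 0.813 CPM in SCC6 and 14.9 and 12.7 CPM in SCC25. USP18, which removes ISG15 and restrains receptor signalling, was at 167 and 89.6 CPM against 0.643 to 20.9 CPM. BST2, tetherin, separated the lines unequally, at 608 and 521 CPM in SCC1, 2.77 and 2.49 CPM in SCC6 and 247 and 321 CPM in SCC25. The signalling member IRF7 (148 and 116 CPM against 0 to 47.5 CPM) was called too.

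Several abundant members exceeded SCC6 strongly and SCC25 weakly, and were not called. ISG15, a ubiquitin-like modifier, was at 2129 and 1048 CPM in SCC1, 55.3 and 68.9 CPM in SCC6 and 717 and 804 CPM in SCC25 (FDR = 0.0974). IFI27 was at 4185 and 3225 CPM, 0.758 and 1.06 CPM, and 1968 and 1931 CPM in the same order (FDR = 0.0541). Both passed with the block. HLA-B, a heavy chain of MHC class I, was at 967 and 1079 CPM in SCC1, 6.04 and 6.18 CPM in SCC6 and 567 and 1284 CPM in SCC25, so that SCC1 and SCC25 overlapped. HLA-DRB1 was called higher at 4.28 and 4.53 CPM while its partner chain HLA-DRA had no UMI in SCC1. HLA genes have near-identical copies, and the reads they share were counted in a way not given here.

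**Figure D4:**
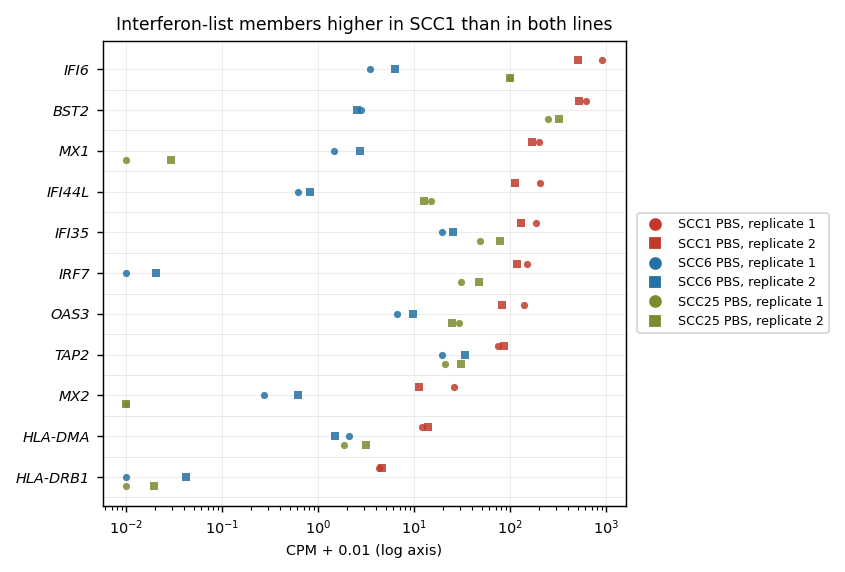
Interferon-list members higher in SCC1 than in both lines (11 shown), by sample, on a log axis of CPM + 0.01. Colours mark lines and shapes replicates. SCC1 points lie to the right of all others, with SCC25 nearer to SCC1 than SCC6 for most genes and MX1 and MX2 at or near 0 in SCC25.

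Of the interferon receptor genes, IFNAR1, IFNAR2, IFNGR2 and IL10RB were higher in SCC1, and these lie side by side on chromosome 21. Other interferon receptor genes are not described here. IFNAR1 (chr21:33324395-33359864), a chain of the type I interferon receptor, was at 118 and 109 CPM in SCC1, 19.6 and 20.3 CPM in SCC6 and 18.4 and 16.7 CPM in SCC25. This is 5.70-fold and 6.48-fold (log2 2.51 ± 0.22 and 2.70 ± 0.22, FDR = 0.000611). IFNAR2, its partner, was at 47.2 and 52.1 CPM against 10.3 to 13.3 CPM, and IFNGR2, a chain of the interferon gamma receptor, at 186 and 165 CPM against 33.1 to 45.1 CPM. IL10RB, shared by the receptors of interleukin 10 and interferon lambda, was at 24.9 and 34.2 CPM against 4.74 to 11.7 CPM.

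Genes around them were higher too, over a bounded stretch. TMEM50B, the next gene, was at 116 and 93.8 CPM against 11.4 to 19.2 CPM, and it overlaps the end of IFNGR2 in the annotation. DNAJC28 (2.13 and 3.69 CPM against at most 0.515 CPM) and SON, a splicing cofactor (220 and 216 CPM against 95 to 123 CPM), were called higher as well. GART and DONSON were above both lines without passing (FDR = 0.107 and 0.278). On either side, PAXBP1 (14.3 and 11.2 CPM against 5.86 to 15.9 CPM) and CRYZL1 (8.86 and 13.4 CPM against 9.53 to 17.5 CPM) overlapped the other lines. Of 496 windows of 2 Mb with at least 6 genes reaching 10 CPM, that at chr21:32000001-34000000 had the largest share of higher genes, 6 of 14 (42.9%), with 33.3% in the next and 3.19% over all 8155 such genes with a position. MX1 (chr21:41420558-41459214) and MX2 lie on the same chromosome outside this window. The files hold no measure of DNA copy number.

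**Figure D5:**
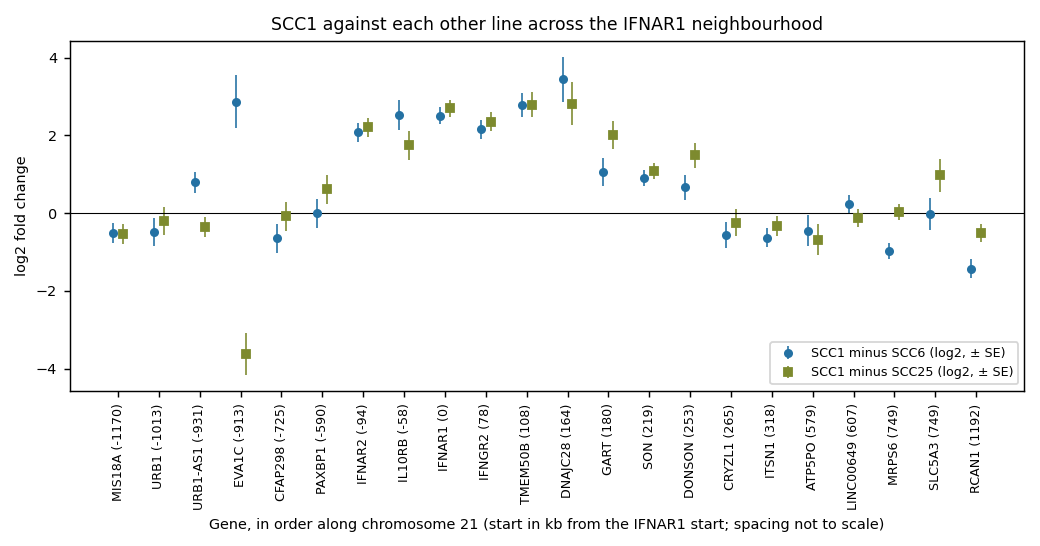
log2 fold change of SCC1 over SCC6 (circles) and over SCC25 (squares), with SE, for genes in order along chromosome 21 around IFNAR1. Numbers after the names are kb from the IFNAR1 start. Both series stand above 0 from IFNAR2 to DONSON and near or below 0 at CFAP298, CRYZL1 and ITSN1.

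Cytokines were higher more often than lower, 5 and 1 of 30 tested, and 8 and 1 with the block. CXCL1, a neutrophil chemokine, was at 50.6 and 65.8 CPM in SCC1, 0.046 and 0.0633 CPM in SCC6 and 17.1 and 14.9 CPM in SCC25. The interleukin 1 family members IL1B (154 and 180 CPM against 16.5 to 85.1 CPM), IL18 (169 and 170 CPM against 46 to 102 CPM) and IL36RN were higher, with CSF3. CSF2 was lower, at 0.0266 and 0.0399 CPM against 1 to 5.65 CPM.

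Of 25 cell cycle control genes, CDKN2A and CCNE2 were higher (8%) and ANO1 and CDKN1C lower (8%). Over all genes the shares were 3.63% and 8.2%, so the lower share was near that of all genes. With the block 3 were higher and 5 lower. CCNE2, an E-type cyclin, was at 15.7 and 18.9 CPM against 3.17 to 6.97 CPM. CDKN2B, the neighbour of CDKN2A that encodes p15, was at 22 and 16.8 CPM in SCC1, 0.0115 and 0 CPM in SCC6 and 19 and 43 CPM in SCC25, and did not set SCC1 apart. ANO1, a chloride channel gene of chromosome band 11q13, was at 0.0399 and 0 CPM in SCC1, 0.563 and 0.422 CPM in SCC6 and 28.7 and 37.8 CPM in SCC25. None of 21 proliferation genes was called by edgeR, where 11.8% of all genes were. Of these, 1 was at an unadjusted joint p under 0.05, and 1 was called with the block, 1 by DESeq2 and 0 by limma. None of 16 stress and dissociation genes was called either, beside the same 11.8%. Of these, 3 were at an unadjusted p under 0.05, and 3 were called with the block, 3 by DESeq2 and 0 by limma.

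Targets of NRF2, the factor that responds to oxidants, gave 3 lower genes of 32 (9.38%), GPX2, PIR and ALDH1A3, and none higher. The lower share was near the 8.2% over all genes. With the block 7 were lower and 1 higher, where 12.6% and 8.26% of all genes were. PIR was at 5.55 and 8.87 CPM against 25.3 to 233 CPM and ALDH1A3, a retinaldehyde dehydrogenase, at 18.6 and 23.7 CPM against 67.5 to 203 CPM. NQO1, the classical target, was at 451 and 716 CPM in SCC1 and 171 to 501 CPM elsewhere, and was not called without the block (FDR = 0.495).

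In all, the 27 lists, without the lists of cell type markers, held 788 genes, of which 724 were tested, 52 were higher and 111 were lower. The calls were repeated in the 6 cetuximab samples, which had no part in the fit, with each line's treated samples in place of its PBS samples. Of the 2039 genes, 1479 had the same call there, and of the 163 list genes 118 did. These samples had all been treated, so the comparison holds the line differences under cetuximab and not at baseline.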

How the data were processed

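The deposited tables, 1 per line, held raw counts of UMIs per gene and cell, which the authors had made with Cell Ranger on GRCh38 (submitters' processing notes, no versions given) and, per the methods, pre-processed in Monocle. The annotation and the counting of shared reads are not given in the sources used here. A separate cell table per line, deposited with other content, names the sample of each cell. Cells were assigned to samples by these names, no value column was left unused, and all deposited cells were kept, with no doublet caller run. Counts of the 33538 gene lines were added by symbol (33514 symbols, 24 of them on several lines) and summed per sample.

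Sums of the 6 PBS samples were fitted in edgeR 4.0.16 (R 4.3.3) with TMM factors, filterByExpr and 1 mean per line, by the quasi-likelihood F-test with 3 residual degrees of freedom. Per gene, the larger of the two-sided p-values of SCC1 against SCC6 and against SCC25 was kept where the signs were alike, 1 otherwise, and Benjamini-Hochberg adjusted over 17229 genes. SCC1 against the mean of both lines came from the same fit. The scripts were tested on simulated data.

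Named genes were the 12 highest and 12 lowest called genes by size of the smaller difference with at least 50 CPM in the higher group or groups, up to 4 per list and direction with at least 10 CPM, and 8 fixed genes (TFAP2A, VIM, EGFR, AXL, KRT5, KRT14, TP63, CDH1), without mitochondrial, ribosomal protein and Y-linked genes. Other list members are named as examples after their values were seen, as are the genes of the chromosome 21 stretch. The members and the lists were chosen with earlier results of these data known. A group with no UMI was given a floor of 3 UMIs. Shares of cells used cells thinned to 18500 UMIs. Floors and intervals (95%, exact) cover counting error only.

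Replicate numbers are shared by the lines. The difference of replicates 1 and 2 correlated between lines (r = 0.507 for SCC1 and SCC6, 0.678 for SCC1 and SCC25, 0.442 for SCC6 and SCC25, across 17229 genes). A fit with the replicate number as a block was therefore given as an alternative, although the labels do not say what the number marks. The main fit has 1 mean per line and no such term, so its calls and FDRs do not use a pairing. The labels also do not say that replicates were separate cultures, and p-values then measure only the spread between these samples. RefSeq positions and promoters (GRCh38.p14) were matched by symbol, with positions for 14611 of the tested genes. DESeq2 1.42.0 and limma 3.58.1 were alternatives. Results for a few genes are not reported here.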

Additional observations from a re-analysis of the deposited data

How the results depend on the processing

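Counts of genes apart from both lines were within 1.5 times of 2039 under DESeq2 size factors, DESeq2, limma-trend, no filter on low counts, the 12-sample fit, removal of the top 5% of cells by UMIs or of cells over 20% mitochondrial UMIs, thinned totals, library totals and the cetuximab samples (1929 to 2920). The replicate block gave 3587. Leaving out 1 library gave 912 to 1749 calls, lowest without SCC1 replicate 1 (912, of which 904 were among the 2039) and replicate 2 (942). For SCC1 against the mean of the other lines (6257) the range was 3100 to 6153, again lowest without either SCC1 replicate, and for list genes (163) it was 96 to 156. The cause was not tested, beyond that these fits hold fewer samples. Of 78 called named genes, 43 kept their call under all 17 alternatives and 35 lost it under at least 1, most of them without an SCC1 replicate. Library totals ended 7 of these calls, and the block added 1, CDH1, and ended none. The library totals and the cetuximab samples were chosen after seeing the data. With the cetuximab samples DKK1 no longer had the same sign against both lines (smaller difference 0), and the cause was not tested. Without thinning, the share of SCC1 cells with a UMI moved from 1.90% to 4.09% for CD24, from 2.65% to 5.09% for VIM and from 90.1% to 98.5% for TFAP2A. With 3 residual degrees of freedom and 2 replicates per line, a gene that misses the threshold is not shown to be alike.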

Other observations

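The 5 of the 496 windows of 2 Mb with the largest share of lower genes are given as extremes picked after their values were seen, beside 6.66% lower over all 8155 genes with a position and at least 10 CPM. At chr19:50000001-52000000, 7 of 14 genes were lower (50%), the kallikreins KLK1, KLK5, KLK6, KLK7, KLK8 and KLK10 with CLEC11A. At chr9:92000001-94000000 it was 7 of 11 (63.6%), namely CENPP, BICD2, FGD3, SUSD3, CARD19, NINJ1 and FAM120A, with SUSD3 4.19 below the nearer line on the log2 scale. At chr9:96000001-98000000 it was 4 of 7 (NCBP1, XPA, TRMO and ANP32B). The windows at chr15:62000001-64000000 (LACTB, RPS27L, USP3 and DAPK2) and chr19:28000001-30000000 (UQCRFS1, PLEKHF1, C19orf12 and URI1) each had 4 of 6 genes lower. In these last 2 windows and the latter chr9 window, the genes differ in function and 10 of the 12 were lower by 0.94 to 1.84.

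In SCC6, outside the contrast of SCC1 with both lines, YAP1, BIRC2 and BIRC3 were high, at 698 and 418, 388 and 305, and 568 and 95.5 CPM, against 34.5 and 27.6, 21.5 and 21.4, and 4.38 and 3.5 CPM in SCC1.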
